A study of Homo sapiens with 4 samples.

Results

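Chemokines, cytokines and their receptors were examined as 10 named genes, 6 encoding ligands (CXCL8, CXCL12, CCL3, CCL4, IL10 and TNF) and 4 encoding receptors (CXCR4, CCR2, CCR10 and CXCR3), of 60682 genes in the count table. They were measured by RNA-seq of total RNA from JJN3, an established human multiple myeloma line, that is, a cancer of antibody-secreting plasma cells. Cells carried an shRNA against WNK1, a kinase that controls chloride cotransporters (shWNK1, 2 libraries), or the NS shRNA used as its control (NS, 2 libraries). Every library came from cells grown in a mix of DMEM and IMDM with fetal serum and transduced with a hairpin, so the comparison holds no untransduced cells. The labels name no hairpin sequence, vector, selection or time after transduction, and do not say whether replicates were separate transductions. The 10 genes were selected from results of this same comparison, so their own values are given as a description, without a test. Of the 10, 7 passed the low-count filter (CXCL8, CXCL12, CCL3, IL10, CXCR4, CCR2 and CCR10), CCL4 fell below it, CXCR3 had at most 1 count in a library and TNF had none.

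Chemokines are small secreted proteins that bind seven-pass G protein-coupled receptors and guide cell movement, and CC and CXC names reflect the spacing of their first cysteines. In bone marrow, CXCL12 made by stromal cells holds CXCR4-bearing plasma cells and myeloma cells in their niche, while CCL3 and CCL4 from myeloma cells are known for promoting osteoclasts. IL10 is a cytokine that restrains inflammatory responses and supports B-lineage growth and differentiation, and TNF is an inflammatory cytokine. CXCL8, CCL3, IL10 and TNF share a known form of control in which NF-κB and AP-1 factors act at the promoter and AU-rich elements in the mRNA 3′ end set its decay.

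Total counts were 16973521 and 20164122 in shWNK1 libraries and 17491537 and 17392619 in NS libraries. Levels are CPM, that is, counts scaled to a common library size with TMM factors, and 3 counts, the limit that a count of 0 allows, stood for 0.146 to 0.177 CPM. WNK1 itself was counted 325 and 403 times in shWNK1 and 4911 and 4148 times in NS libraries, a log2 fold change of -3.80 (SE 0.085, edgeR adjusted p = 4.2e-25). Plasma cell markers were expressed in all libraries, with summed levels of 1996 and 1988 CPM in shWNK1 and 2212 and 2192 CPM in NS cells over 9 genes. Of the 9, 3 rose (SLAMF7, JCHAIN and PRDM1), 5 fell (SDC1, MZB1, CD38, IRF4 and XBP1) and 1 was not called at an edgeR adjusted p under 0.05. The rises and falls were 33.3% and 55.6% of the list, beside 18.5% and 20.2% of all tested genes. Log2 fold changes were 2.96 for SLAMF7, -1.32 for SDC1 and -0.98 for MZB1 (edgeR adjusted p = 1.6e-11, 3.3e-16 and 6.3e-10). Of the markers of other cell types, 8 of 13 myeloid, 8 of 11 T and NK, 9 of 11 stromal or endothelial and 5 of 7 mature B genes had at most 3 counts in every library. So did 39325 of all 60682 genes. The myeloid list summed to 12.8 and 15.2 CPM in shWNK1 and 2.81 and 3.19 CPM in NS cells, most of it S100A8 and S100A9. Of the other myeloid markers, LYZ, FCGR3A, FCGR1A, CSF3R, MPO and MS4A7 had 0 counts in all 4 libraries, CD68 and AIF1 had at most 1, and CD14, CSF1R and ITGAM had 1 to 10 in each. The T and NK list summed to 1.49 and 0.924 CPM in shWNK1 and 1.58 and 1.42 CPM in NS cells. The stromal and endothelial list without CXCL12 summed to 2.75 and 3.55 CPM in shWNK1 and 1.70 and 2.72 CPM in NS cells. The mature B list summed to 3.15 and 3.36 CPM in shWNK1 and 8.21 and 6.74 CPM in NS cells, mostly PAX5. The part of these marker levels in the results below was not tested. In RNA from whole cultures, fewer cells that make a transcript and less of it per cell cannot be told apart.

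**Figure D1:**
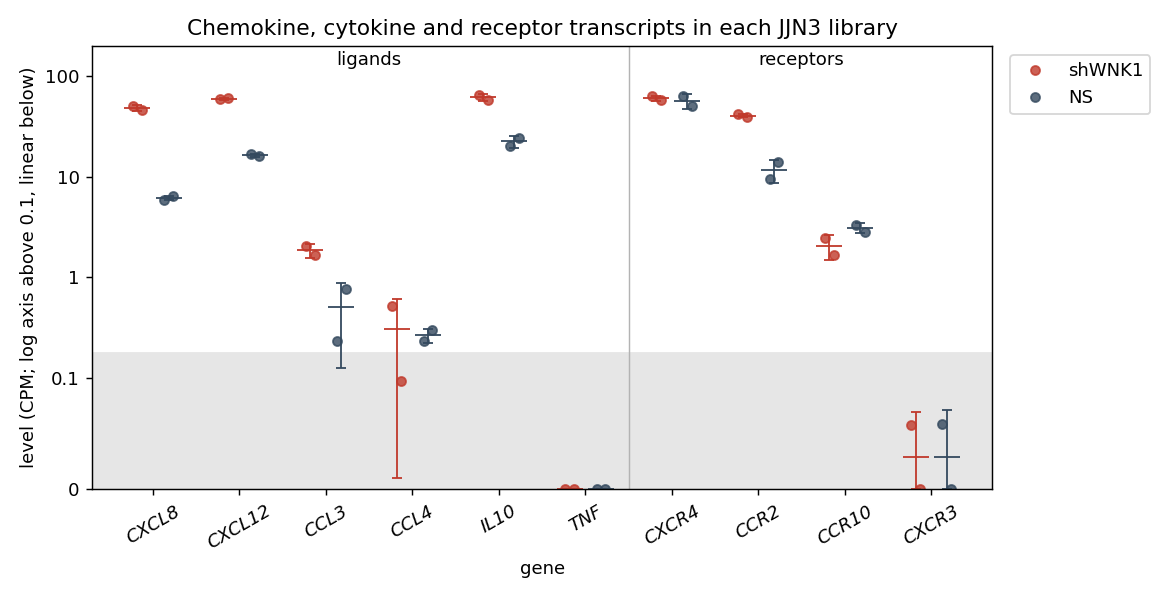
Level of each of the 10 genes in CPM (vertical axis, logarithmic above 0.1 CPM and linear below), with 1 point per library, a horizontal bar at the group mean and whiskers of 1 SD (n = 2), shWNK1 in red and NS in dark blue. The grey band reaches 0.177 CPM, the highest level that 3 counts stand for in any library. CXCL8, CXCL12, CCL3, IL10 and CCR2 lie higher in both shWNK1 libraries, CXCR4 overlaps, and CXCR3 and TNF lie in the band.

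Across the 7 genes that passed the filter, both shWNK1 libraries lay above both NS libraries for 5 (CXCL8, CXCL12, CCL3, IL10 and CCR2), and below them for 1 (CCR10). Among all 14864 tested genes the shares were 34.7% above and 33.7% below. The same 5 genes had a fitted fold of at least 2 in the higher direction, and 0 in the lower direction. Over all tested genes 4.86% were at least 2-fold higher and 3.81% at least 2-fold lower. Since this contrast was used to choose the genes, nothing is read from these counts. The values below are in the order ligands, then receptors. With 2 libraries against 2, an exact two-sided permutation test of a single gene cannot give a p under 0.333.

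CXCL8 (ENSG00000169429.11, chromosome 4, 73740541 to 73743716, plus strand, hg38), which encodes interleukin 8, the chemokine that attracts neutrophils, was counted 882 and 945 times in shWNK1 and 101 and 108 times in NS libraries. That is 50.6 and 45.98 CPM in shWNK1 cells and 5.92 and 6.38 CPM in NS cells. The replicates of each group lay close together and the groups were far apart. The means were 48.3 ± 3.25 CPM in shWNK1 cells, against 6.15 ± 0.326 CPM in NS cells (SD, n = 2 each), a log2 fold change of 2.97 (SE 0.133), and 28 of the 14864 tested genes had a larger one. Leaving out any single library left the log2 fold change between 2.90 and 3.03. The CXCL8 promoter is shown because it holds, close to the transcription start, words of the factors this gene is known for. RefSeq (GRCh38.p14) places the window of 250 bases before to 50 after the start at chr4:73740319-73740618, plus strand.
CXCL8: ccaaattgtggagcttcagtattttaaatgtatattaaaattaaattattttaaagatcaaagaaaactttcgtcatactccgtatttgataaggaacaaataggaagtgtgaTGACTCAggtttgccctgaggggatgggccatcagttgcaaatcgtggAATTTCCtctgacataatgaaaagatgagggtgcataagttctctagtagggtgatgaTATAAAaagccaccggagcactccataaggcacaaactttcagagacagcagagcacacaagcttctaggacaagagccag
Capitals mark, from left to right, the AP-1 word TGACTCA starting 137 bases before the start, the short NF-κB word AATTTCC at 89 bases and the TATA word TATAAA at 31 bases.

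None of the 8 other CXC chemokine genes within 1 Mb of CXCL8 showed such counts. Of these, 6 (CXCL1, CXCL2, CXCL5, CXCL6, PF4 and PPBP, which also attract or activate leukocytes or come from platelets) had at most 3 counts in every library. CXCL3 had 3 and 5 counts in shWNK1 libraries, against 9 and 2 in NS libraries. PF4V1, the only one tested, had 13 and 15 counts in shWNK1 libraries, against 18 and 11 in NS libraries (log2 fold change -0.21, edgeR adjusted p = 0.829).

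CXCL12 (ENSG00000107562.16, chromosome 10, 44370165 to 44386493, minus strand), the ligand of CXCR4, was counted 1026 and 1244 times in shWNK1 and 287 and 270 times in NS libraries. Its level was 58.8 and 60.5 CPM in shWNK1 cells and 16.8 and 16.0 CPM in NS cells. The means were 59.7 ± 1.20 CPM in shWNK1 cells, against 16.4 ± 0.616 CPM in NS cells (SD, n = 2 each), a log2 fold change of 1.86 (SE 0.104). Leaving out any single library left it between 1.83 and 1.90, and the groups did not overlap. Its transcript is usually made by stromal cells. Of the 11 stromal and endothelial markers, COL1A2, COL3A1, LUM, PDGFRA, VWF and CDH5 had 0 counts in all 4 libraries, COL1A1, PDGFRB and THY1 had at most 3, and DCN had 4 in NS replicate 1 and 0 elsewhere. PECAM1 had 43 and 70 counts in shWNK1 libraries, against 22 and 41 in NS libraries (log2 0.67, edgeR adjusted p = 0.169). Their part in the CXCL12 level was not tested. In contrast to that of CXCL8, the CXCL12 window (chr10:44385048-44385347, minus strand) holds none of the words searched.
CXCL12: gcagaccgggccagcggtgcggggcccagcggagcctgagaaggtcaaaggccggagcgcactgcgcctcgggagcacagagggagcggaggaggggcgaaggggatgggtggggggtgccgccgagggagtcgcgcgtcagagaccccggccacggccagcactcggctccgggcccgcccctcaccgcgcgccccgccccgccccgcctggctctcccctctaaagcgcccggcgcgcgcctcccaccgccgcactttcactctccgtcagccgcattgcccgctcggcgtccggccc

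CCL3 (ENSG00000277632.2, chromosome 17, 36088256 to 36090169, minus strand), also called MIP-1α, was counted 36 and 34 times in shWNK1 and 4 and 13 times in NS libraries. Its level was 2.06 and 1.65 CPM in shWNK1 cells and 0.235 and 0.768 CPM in NS cells. All 4 libraries were low, and NS replicate 1 was close to the 3-count limit. The log2 fold change was 1.87 (SE 0.583), and it became 1.26 when NS replicate 1 was left out and 2.95 when NS replicate 2 was. Exons of the opposite-strand gene CCL3-AS1, with 0 counts in all libraries, cover 74.6% of the exon bases of CCL3. Counting used no strand and did not ask for fragments that lie over more than 1 gene. CCL3L3, a near-identical copy, had 8 and 5 counts in shWNK1 libraries and 1 and 4 in NS libraries, and fragments shared by the copies cannot be told apart. The level of CCL3 is uncertain for both reasons.

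CCL4 (ENSG00000275302.2, chromosome 17, 36103827 to 36105621, plus strand), also called MIP-1β, has its lowest coordinate 15.6 kb from that of CCL3. It was counted 9 and 2 times in shWNK1 and 4 and 5 times in NS libraries. These values are near the floor and the groups overlapped. The ratio of summed counts per library size was 1.09 (95% exact counting interval 0.412 to 2.98), so a difference was not detectable at this depth. The copy CCL4L2 had 0 counts in all libraries. Fragments shared by CCL4 and this copy cannot be told apart, so the CCL4 level is uncertain as well. Of the other 8 CC chemokine genes within 1 Mb of CCL3, counting CCL3L3 and CCL4L2, 6 had at most 3 counts in every library and only CCL5, which attracts T cells, was tested (33 and 37 counts in shWNK1 libraries, 40 and 37 in NS libraries, edgeR adjusted p = 0.59).

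IL10 (ENSG00000136634.7, chromosome 1, 206767602 to 206774541, minus strand) was counted 1133 and 1203 times in shWNK1 and 347 and 415 times in NS libraries. Its level was 65.0 and 58.5 CPM in shWNK1 cells and 20.4 and 24.5 CPM in NS cells. The means were 61.7 ± 4.55 CPM in shWNK1 cells, against 22.4 ± 2.96 CPM in NS cells (SD, n = 2 each), a log2 fold change of 1.46 (SE 0.104), between 1.33 and 1.60 when any single library was left out. The groups did not overlap, and the NS libraries lay further apart, relative to their mean, than those of CXCL8 or CXCL12 did. IL19, a cytokine gene of the IL10 family on the opposite strand, shares 172 exon bases with IL10, 5.0% of the IL10 exons and 2.76% of its own. It was counted 98 and 130 times in shWNK1 and 23 and 48 times in NS libraries and rose 2.85-fold (log2 1.51, SE 0.303, edgeR adjusted p = 1.5e-04). Its log2 fold change became 1.07 when NS replicate 1 was left out and 2.14 when NS replicate 2 was. Counting used no strand and did not ask for fragments that lie over both genes, so fragments over the shared bases may be missing from both counts. Without strand, fragments of either gene could also be counted for the other where their spans overlap. The part of this overlap in either value was not tested. IL20 and IL24, next in the cluster, had 0 counts in all libraries. RefSeq gives 3 windows for IL10, and the one below (chr1:206772445-206772744, minus strand) holds a TATA word 30 bases before the start, whereas another holds an AP-1 word 69 bases before its start.
IL10: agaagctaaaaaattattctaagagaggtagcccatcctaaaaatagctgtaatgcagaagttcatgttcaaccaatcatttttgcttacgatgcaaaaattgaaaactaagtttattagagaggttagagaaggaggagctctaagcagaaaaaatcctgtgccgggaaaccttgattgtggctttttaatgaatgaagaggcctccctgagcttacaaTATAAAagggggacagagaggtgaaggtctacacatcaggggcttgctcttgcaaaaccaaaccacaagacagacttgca

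TNF (ENSG00000232810.4, chromosome 6, 31575565 to 31578336, plus strand) had 0 counts in all 4 libraries, which allows at most 0.172 and 0.146 CPM in shWNK1 cells and 0.176 and 0.177 CPM in NS cells. No fold is given.

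CXCR4 (ENSG00000121966.7, chromosome 2, 136114349 to 136118149, minus strand), the marrow-homing receptor of plasma cells, was counted 1098 and 1181 times in shWNK1 and 1094 and 849 times in NS libraries. Its level was 63.0 and 57.5 CPM in shWNK1 cells and 64.2 and 50.2 CPM in NS cells. The shWNK1 values lay between the NS values. The means were 60.2 ± 3.89 CPM in shWNK1 cells, against 57.2 ± 9.88 CPM in NS cells (SD, n = 2 each), a log2 fold change of 0.073 (SE 0.097). It became 0.261 when NS replicate 1 was left out and -0.093 when NS replicate 2 was, so its sign depended on which NS library was used.

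CCR2 (ENSG00000121807.5, chromosome 3, 46353734 to 46360928, plus strand), the receptor through which CCL2 draws monocytes, was counted 726 and 814 times in shWNK1 and 162 and 235 times in NS libraries. Its level was 41.6 and 39.6 CPM in shWNK1 cells and 9.50 and 13.9 CPM in NS cells. The means were 40.6 ± 1.43 CPM in shWNK1 cells, against 11.7 ± 3.10 CPM in NS cells (SD, n = 2 each), a log2 fold change of 1.80 (SE 0.137). It became 1.55 when NS replicate 1 was left out and 2.09 when NS replicate 2 was, and both shWNK1 libraries stayed above both NS libraries. CCR2 lies in a cluster of 8 chemokine receptor genes, of which CCR1, a receptor of CCL3, had by far the highest counts. CCR1 was counted 2864 and 3402 times in shWNK1 and 1972 and 2222 times in NS libraries and rose 1.34-fold (log2 0.42, SE 0.068, edgeR adjusted p = 8.3e-06). CCR3 and CXCR6 had 6 to 18 counts a library and were not called (edgeR adjusted p = 1.0 and 0.424). The CCR2 window (chr3:46353861-46354160, plus strand) has in capitals an AP-1 word 212 bases before the start.
CCR2: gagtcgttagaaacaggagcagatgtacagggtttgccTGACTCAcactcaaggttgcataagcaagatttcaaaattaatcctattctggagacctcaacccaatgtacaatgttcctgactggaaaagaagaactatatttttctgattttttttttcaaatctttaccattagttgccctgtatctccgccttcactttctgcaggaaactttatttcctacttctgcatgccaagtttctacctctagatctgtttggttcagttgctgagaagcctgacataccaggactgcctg

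CCR10 (ENSG00000184451.5, chromosome 17, 42678889 to 42683917, minus strand), a homing receptor of plasma cells in mucosa and skin, was counted 43 and 34 times in shWNK1 and 57 and 48 times in NS libraries. Its level was 2.47 and 1.65 CPM in shWNK1 cells and 3.34 and 2.84 CPM in NS cells. Both shWNK1 libraries were lower, with a log2 fold change of -0.59 (SE 0.355) that became -0.90 when shWNK1 replicate 1 was left out and -0.33 when shWNK1 replicate 2 was. The opposite-strand gene CNTNAP1 (319 and 507 counts in shWNK1, 388 and 314 in NS libraries) covers 17.7% of its exon bases. CXCR3 (ENSG00000186810.8, chromosome X, 71615916 to 71618511, minus strand), a receptor of interferon-induced chemokines, had 1 and 0 counts in shWNK1 libraries, against 1 and 0 in NS libraries, and no fold is given.

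**Figure D2:**
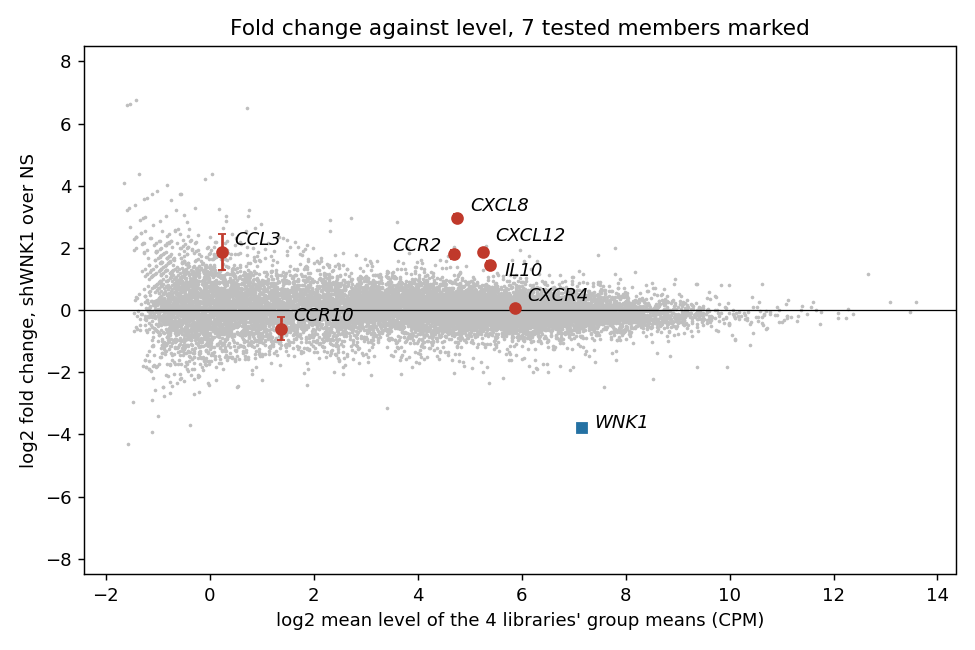
Log2 fold change of shWNK1 over NS (vertical axis) against the log2 of the mean CPM of the group means (horizontal axis) for the 14864 tested genes (grey), the 7 chemokine, cytokine and receptor genes that passed the filter (red, whiskers 1 SE) and WNK1 (blue square). CXCL8 stands at 2.97, CXCL12, CCL3 and CCR2 between 1.80 and 1.87, IL10 at 1.46, CXCR4 near 0 and CCR10 at -0.59.

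Levels of different genes were compared after division by exon length, as CPM per kilobase (RPKM). In shWNK1 cells the order was CXCR4 (27.3 ± 1.76 RPKM), CXCL8 (21.6 ± 1.45), IL10 (17.95 ± 1.32), CCR2 (10.9 ± 0.383), CXCL12 (9.82 ± 0.198), CCL3 (1.24 ± 0.194), CCR10 (0.787 ± 0.219) and CCL4 (0.171 ± 0.165), with SD over 2 libraries, and no library of 1 gene reached into the next. In NS cells CXCR4 led with 25.9 ± 4.47 RPKM, followed by IL10 at 6.52 ± 0.859 RPKM. CCR2 (3.13 ± 0.831 RPKM), CXCL8 (2.75 ± 0.146 RPKM) and CXCL12 (2.70 ± 0.101 RPKM) came next, and libraries of CCR2 and CXCL8, and of CXCL8 and CXCL12, overlapped. CCR10 stood at 1.18 ± 0.137 RPKM, and CCL3 (0.336 ± 0.253 RPKM) and CCL4 (0.148 ± 0.0240 RPKM) overlapped. CXCL8 thus stood second of the 10 in shWNK1 cells, whereas in NS cells its place among CCR2 and CXCL12 was not separable. The place of CCL3 is uncertain in both groups, since its length includes the exon bases under CCL3-AS1.

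Transcripts of known binding partners were looked up in the same libraries, which do not show whether ligand and receptor came from the same cells. Partners were taken from textbook pairings and not from the rule for named genes. Of 20 partner genes, 9 had at most 3 counts in every library, 3 were under the filter and 8 were tested. Both CXCL8 receptors were among the near-absent, since CXCR1 and CXCR2 each had 1 count in shWNK1 and 0 in NS libraries. Both CXCL12 and its receptor CXCR4 were present in both groups, and the scavenging receptor ACKR3 had 0 counts throughout. From the signalling list, DPP4, a surface peptidase that trims CXCL12, fell 2.08-fold to 3.24 ± 0.524 CPM in shWNK1 cells, against 6.71 ± 0.629 CPM in NS cells (log2 -1.05, SE 0.250, edgeR adjusted p = 9.6e-04).

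CCR1, a receptor of CCL3, was at 62.3 ± 0.349 RPKM in shWNK1 cells and 46.7 ± 4.19 RPKM in NS cells (SD, n = 2 each). Ligands of CCR2 were scarce. CCL2 had 9 and 13 counts in shWNK1 libraries, against 15 and 16 in NS libraries (log2 -0.66, edgeR adjusted p = 0.453), CCL7 had at most 1 count, and CCL8 and CCL13 had 0. The CCR10 ligands CCL27 and CCL28 had 0 counts in all libraries, although 97.6% of the CCL27 exon bases lie under another annotated gene. Of the CXCR3 ligands, CXCL11 had 0 counts, CXCL9 had 1 to 4 a library and CXCL10 had 16 and 9 in shWNK1 and 9 and 3 in NS libraries.

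The IL10 receptor chains did not pass the test. IL10RA, the ligand-binding chain, was at 41.8 ± 1.34 CPM in shWNK1 cells, against 39.3 ± 2.22 CPM in NS cells (log2 0.09, SE 0.097, edgeR adjusted p = 0.522). IL10RB was at 2.33 ± 0.195 CPM in shWNK1 cells, against 2.09 ± 0.696 CPM in NS cells (edgeR adjusted p = 0.793). Another annotated gene, IFNAR2-IL10RB, covers 38.3% of the IL10RB exon bases on the same strand, so the IL10RB level is uncertain. Although TNF was not detected, both of its receptors rose. TNFRSF1B was at 495 ± 9.06 CPM in shWNK1 cells, against 343 ± 10.7 CPM in NS cells (log2 0.53, SE 0.057, edgeR adjusted p = 5.3e-09), and TNFRSF1A at 40.9 ± 0.510 CPM in shWNK1 cells, against 23.9 ± 5.03 CPM in NS cells (log2 0.78, SE 0.118, edgeR adjusted p = 3.5e-06). ADAM17, the protease that sheds TNF and its receptors, fell to 30.2 ± 2.94 CPM in shWNK1 cells, against 51.2 ± 1.17 CPM in NS cells (log2 -0.76, SE 0.099, edgeR adjusted p = 1.9e-07). CD74, a receptor of the cytokine MIF and the class II invariant chain, rose 1.54-fold (log2 0.62, SE 0.060, edgeR adjusted p = 4.4e-10). MIF had 2 to 10 counts a library, but MIF-AS1 covers 94.1% of its exon bases, so its level cannot be read.

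**Figure D3:**
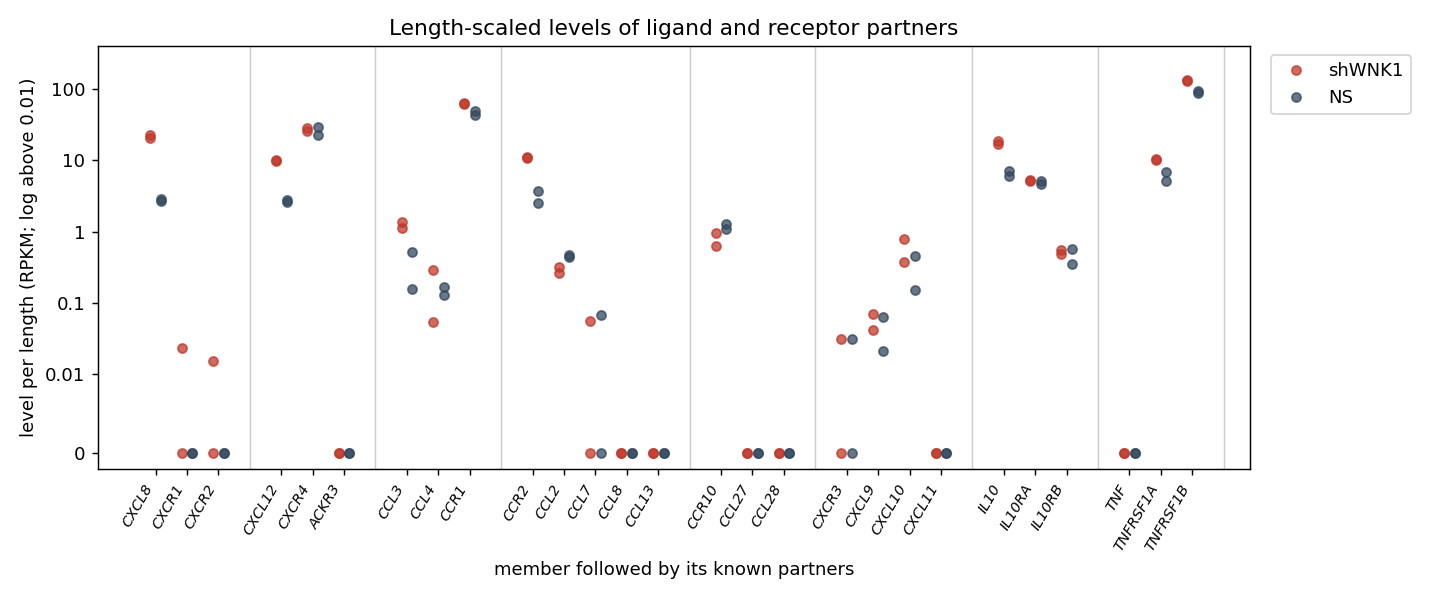
Length-scaled level (RPKM, vertical axis, logarithmic above 0.01 and linear below) of each chemokine, cytokine or receptor gene followed by its known partners, separated by grey lines, with 1 point per library, shWNK1 in red and NS in dark blue. CXCR4, CCR1 and TNFRSF1B lie above 20 RPKM in every library, while the CXCL8 receptors and the CCR10 ligands are at or near 0.

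The wider families were described from 6 lists made from gene names (chemokine ligands, chemokine receptors, other cytokines, their receptors, TNF superfamily ligands and TNF receptors), without the 10 genes above. Of 233 such genes in the table, 115 had at most 3 counts in every library and 80 were tested. Of the 80, 18 rose, 14 fell and 48 were not called, with a median log2 fold change of 0.075. Over all tested genes 18.5% rose and 20.2% fell (edgeR, adjusted p under 0.05), and the median was 0.0051, so the shares in these lists (22.5% and 17.5%) were near the background. Of all tested genes 2755 rose, and 1708 did without shWNK1 replicate 1 and 1694 without shWNK1 replicate 2.

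Among 6 tested chemokine ligands, 1 rose and 1 fell. CCL20, which attracts CCR6-bearing lymphocytes, rose to 6.30 ± 0.0967 CPM in shWNK1 cells, against 2.12 ± 0.0118 CPM in NS cells (log2 1.57, SE 0.273, edgeR adjusted p = 2.1e-05). CXCL16, a membrane-bound chemokine, fell to 3.92 ± 0.105 CPM in shWNK1 cells, against 9.98 ± 0.181 CPM in NS cells (log2 -1.35, SE 0.210, edgeR adjusted p = 3.9e-06). Among 4 tested receptors other than CXCR4, CCR2 and CCR10, CCR1 rose and 0 fell.

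Of 12 tested interleukins, interferons and growth cytokines, 1 rose, IL19, and 4 fell, with 2 rises when NS replicate 2 was left out. TGFB1, a growth-restraining cytokine, fell to 165 ± 5.29 CPM in shWNK1 cells, against 272 ± 13.7 CPM in NS cells (log2 -0.72, SE 0.062, edgeR adjusted p = 4.0e-11). IL16, a chemoattractant of CD4 cells, fell by 0.96 on the log2 scale (edgeR adjusted p = 5.4e-04), and IL12A, a subunit of interleukin 12, fell by 0.65 (edgeR adjusted p = 0.0031). The IL12A call ended without NS replicate 2 (edgeR adjusted p = 0.0887, the highest of 5.5e-05 to 0.0887 over 11 alternatives). The fourth fall, named after its values were seen, was KITLG, the ligand of the KIT receptor (log2 -0.69, edgeR adjusted p = 0.0067). The KITLG call was lost when shWNK1 replicate 2 or NS replicate 1 was left out. STARD5, on the opposite strand, covers 36.0% of the exon bases of IL16.

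Of 35 tested receptors of those cytokines, 9 rose and 6 fell. CSF2RB, the shared beta chain of the interleukin 3, interleukin 5 and GM-CSF receptors, rose to 83.8 ± 1.05 CPM in shWNK1 cells, against 41.2 ± 2.27 CPM in NS cells (log2 1.02, SE 0.084, edgeR adjusted p = 1.4e-11). IL6ST, the gp130 chain used by interleukin 6, a growth factor of myeloma cells, rose to 458 ± 26.5 CPM in shWNK1 cells, against 282 ± 16.2 CPM in NS cells (log2 0.70, SE 0.061, edgeR adjusted p = 5.8e-11). TGFBR3, a TGF-β coreceptor, fell to 5.003 ± 0.952 CPM in shWNK1 cells, against 20.7 ± 0.634 CPM in NS cells (log2 -2.06, SE 0.170, edgeR adjusted p = 1.6e-11). The interferon receptor chains IFNGR1 (log2 -1.0, edgeR adjusted p = 3.0e-06) and IFNLR1 (log2 -0.89, edgeR adjusted p = 6.7e-04) fell as well.

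Among 4 tested TNF superfamily ligands, TNFSF9, the ligand of 4-1BB, rose (log2 0.75, SE 0.158, edgeR adjusted p = 2.6e-04) and 0 fell. Of 19 tested TNF receptor genes, 5 rose and 3 fell, and the rises included FAS and TNFRSF14, named after their values were seen. Beside TNFRSF1A and TNFRSF1B, TNFRSF18, known as GITR, rose to 68.7 ± 0.375 CPM in shWNK1 cells, against 39.6 ± 4.43 CPM in NS cells (log2 0.80, edgeR adjusted p = 1.5e-08). TNFRSF8, known as CD30, fell by 0.98 (edgeR adjusted p = 0.0015). TNFRSF10A, a TRAIL receptor, fell by 0.65 (edgeR adjusted p = 0.0094), but was not called without shWNK1 replicate 2 (0.107, the highest of 0.0092 to 0.107 over 11 alternatives). TNFRSF11A, known as RANK, fell by 0.81 (edgeR adjusted p = 0.010). Its call was lost when shWNK1 replicate 1 (adjusted p = 0.0533), shWNK1 replicate 2 (0.0678) or NS replicate 2 (0.0631) was left out, in a range of 0.0098 to 0.0678 over 11 alternatives. Without NS replicate 1 there were 5 falls in this list, and without shWNK1 replicate 2 there was 1.

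**Figure D4:**
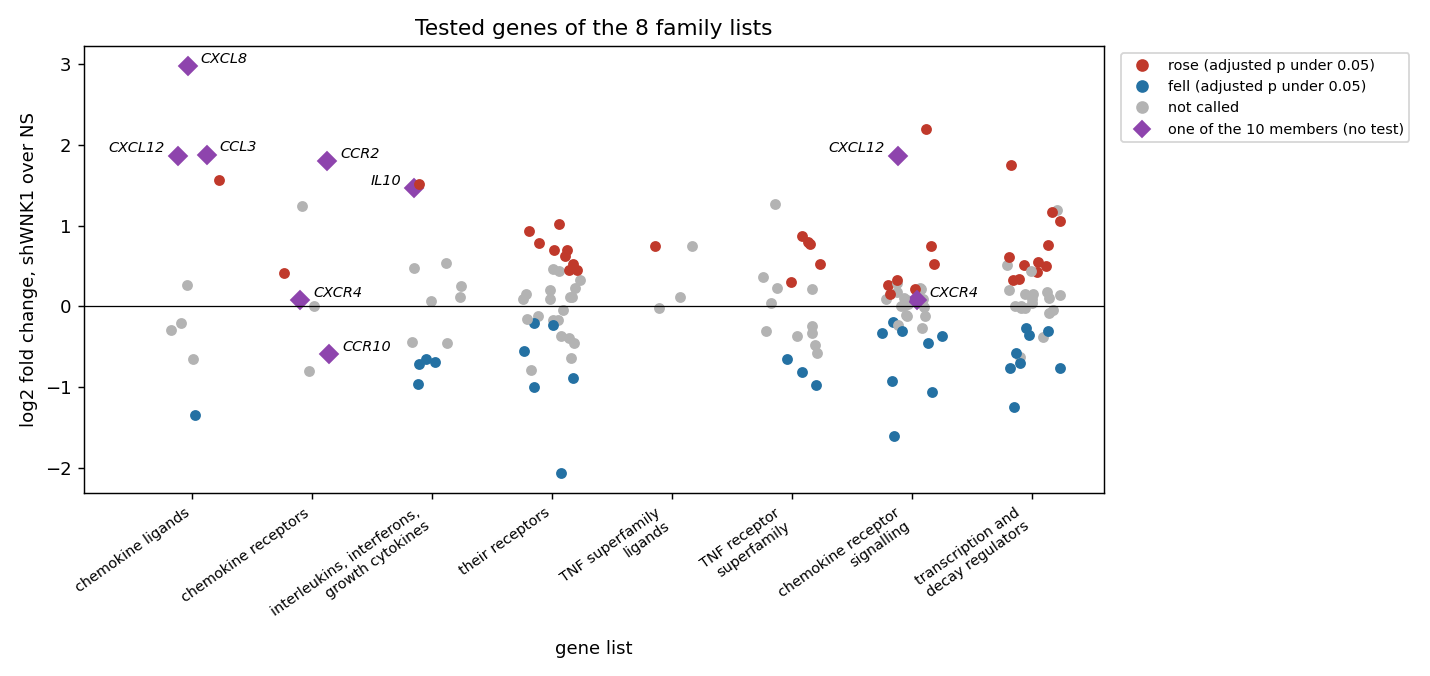
Log2 fold change of shWNK1 over NS (vertical axis) of each tested gene in 8 family lists (horizontal axis), coloured by whether it rose, fell or was not called at an edgeR adjusted p under 0.05, with the selected genes that passed the filter as purple diamonds and no test for them. A gene can stand in more than 1 list, as CXCL12 and CXCR4 do. Most lists hold genes on both sides of 0.

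Transcripts of chemokine receptor signalling moved in both directions, with 7 rises, 8 falls and 20 not called among 35 tested genes other than CXCL12 and CXCR4. These shares, 20.0% and 22.9%, were near the 18.5% and 20.2% of all tested genes. RGS proteins, which switch off the G proteins of these receptors, were among both. RGS16 fell to 27.4 ± 1.03 CPM in shWNK1 cells, against 83.6 ± 1.88 CPM in NS cells (log2 -1.61, SE 0.089, edgeR adjusted p = 8.8e-16). RGS1 rose to 122 ± 0.523 CPM in shWNK1 cells, against 85.0 ± 2.15 CPM in NS cells (log2 0.52, SE 0.071, edgeR adjusted p = 3.5e-07), and RGS3 rose by 0.75 (edgeR adjusted p = 5.8e-05). PTK2B, a cytoplasmic kinase, rose by 0.33 (edgeR adjusted p = 0.0032), and its call was lost when shWNK1 replicate 1 was left out (0.0531, the highest of 0.0011 to 0.0531 over 11 alternatives). DOCK2, an activator of RAC in migrating leukocytes, fell by 0.45 (edgeR adjusted p = 0.0064). Its call was lost when shWNK1 replicate 1 (adjusted p = 0.0876) or NS replicate 2 (0.0792) was left out, in a range of 3.8e-04 to 0.0876 over 11 alternatives. Without shWNK1 replicate 1 this list held 2 rises and 2 falls, without shWNK1 replicate 2 it held 3 and 5, and with DESeq2 4 and 5.

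Regulators of inflammatory cytokine transcription and mRNA decay comprised 11 rises, 8 falls and 19 not called among 38 tested genes. That is 28.9% and 21.1%, beside 18.5% and 20.2% of all tested genes. ZFP36L1, which binds AU-rich elements and speeds decay, rose to 108 ± 5.19 CPM in shWNK1 cells, against 32.3 ± 2.44 CPM in NS cells (log2 1.75, SE 0.086, edgeR adjusted p = 3.7e-17). TNFAIP3, a feedback inhibitor of NF-κB, rose by 1.17 (edgeR adjusted p = 2.2e-15), and BCL3, a nuclear partner of NF-κB subunits, by 0.76 (edgeR adjusted p = 2.7e-07). NFKB1, which encodes the p50 precursor, fell to 41.7 ± 2.40 CPM in shWNK1 cells, against 98.6 ± 10.7 CPM in NS cells (log2 -1.24, SE 0.087, edgeR adjusted p = 4.8e-13). HNRNPD, another protein that binds AU-rich elements, fell by 0.70 (edgeR adjusted p = 1.4e-09).

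The promoters of the 10 genes were searched on both strands for words of known factors. The short NF-κB words were AATTTCC, found in 4.21% of all 35093 windows, and another, ACTTTCC, found in 4.63%. The AP-1 word was TGACTCA, found in 4.95% of windows. The C/EBP word was TTGCAAT, found in 1.95%. The word of the TATA box was TATAAA, found in 11.5%. RefSeq windows were matched for 8 genes, 14 windows in all, and CCL4 and CCR10 had none. An AP-1 word stood in windows of 3 genes (CXCL8, IL10 and CCR2). A short NF-κB word stood in windows of 3 (CXCL8, CCL3 and TNF). A TATA word stood in windows of 5 (CXCL8, CCL3, IL10, TNF and CXCR4), and the C/EBP word in 0. Only exact matches were counted, so a missing word does not show that a factor has no site in the window. A gene with several windows was counted when 1 of them held the word, so its chance to be counted was higher than that of a single window. TNF, with 0 counts, held a short NF-κB word and a TATA word, and CXCL12 held none of the words. What part the promoter words have in the levels was not tested. CXCR4, whose level overlapped between groups, is shown beside the others (chr2:136118100-136118399, minus strand), and its capitals mark TATA words on both strands that overlap.
CXCR4: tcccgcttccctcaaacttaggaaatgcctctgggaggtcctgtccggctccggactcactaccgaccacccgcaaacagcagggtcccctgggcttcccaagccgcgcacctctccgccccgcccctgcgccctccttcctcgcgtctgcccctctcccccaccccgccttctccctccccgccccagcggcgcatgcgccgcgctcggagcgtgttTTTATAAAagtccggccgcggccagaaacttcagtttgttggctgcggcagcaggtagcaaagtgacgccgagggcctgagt

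AU-rich elements, looked for after the values were seen, were counted as ATTTA words in the longest annotated 3′ UTR of each gene in GENCODE v29. At least 1 such word was present in 7 of the 10 genes, namely all 6 ligands and CXCR4. The same held for 67.9% of 19059 protein-coding genes searched and 74.1% of the 11871 tested genes among them, so a single word hardly sets a gene apart. TNF and CXCL8 each had 9, and 14.6% of genes had as many or more. IL10 had 8 (17.3% of genes had as many or more), and CXCL12 and CCL3 had 4 each (34.2%). CCL4 had 2 (51.9%), CXCR4 had 1 (67.9%), and CCR2, CCR10 and CXCR3 had 0. Per kilobase of 3′ UTR, CXCL12 had 1.26 words, CXCR4 1.92, CCL4 6.37, CXCL8 7.19, IL10 7.74, CCL3 9.62 and TNF 11.3. The share of all genes with as many words per kilobase was not computed. The densest stretches of 30 bases show how the words lie in the 5 ligands with 4 or more, with each ATTTA in capitals.
CXCL8: taacctATTTAttATTTAtgtATTTATTTA
IL10: gatacctcaacccccatttctATTTATTTA
CXCL12: gcaaaatacatgacATTTAtttttcATTTA
CCL3: acttaaattttaATTTATTTAtactATTTA
TNF: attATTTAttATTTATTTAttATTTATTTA
These stretches span bases 644 to 673 of the 1252-base UTR in CXCL8, 138 to 167 of 1034 in IL10, 161 to 190 of 3163 in CXCL12, 151 to 180 of 416 in CCL3 and 462 to 491 of 799 in TNF. The transcripts with most words included both CXCL8, at 48.3 CPM in shWNK1 cells, and TNF, with 0 counts. CCR2, which lay higher in both shWNK1 libraries, had no such word. Decay of mRNA was not measured, and the part of these words in the levels was not tested.

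Profiles most like those of the 5 genes with at least 5 CPM were found by the Euclidean distance between log2 CPM values over the 4 libraries after each gene's mean was removed. With 4 libraries in 2 groups, a small distance says little more than a like difference between these log2 CPM values. A prior count of 2 was added before the logarithm, which shrinks the differences of genes with few counts, so their fitted fold changes can be unlike. Nearest to CXCL8 was SLAMF7, a surface receptor of plasma cells (distance 0.141; 211 and 233 counts in shWNK1, 23 and 28 in NS libraries), followed by 2 genes with 0 counts in both NS libraries. Nearest to CXCL12 were the kinase gene SGK1 (0.0957), PRKG2 (0.1) and the cell cycle inhibitor CDKN1A (0.116). TMEM8B (0.0384), FAM227A (0.0850) and MMP15 (0.0902) were nearest to IL10. GCNA (0.114), FAM157A (0.136) and GPR132 (0.148) were nearest to CCR2. NRDE2 (0.0273), SAMHD1 (0.0318) and EXT1 (0.0339) were nearest to CXCR4, and none of these 3 was called.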

How the data were processed

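RNA-seq counts of 4 JJN3 libraries (shWNK1 and NS, 2 each) were used. The authors deposited raw counts per gene, made with featureCounts 2.0.0 on GENCODE 34 (unstranded, paired, mapping quality of at least 20), per the file headers, after Trimmomatic and STAR on hg38, per the submitters' processing notes. Of the table, 3 broken lines and 45 Y copies with 0 counts were left out, leaving 60682 genes, 60369 with a symbol.

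Genes kept by filterByExpr (minimum count 10, 14864 genes) were scaled by TMM and tested, two-sided, with edgeR 4.0.16 in R 4.3.3 (glmQLFit, robust, and glmQLFTest), with Benjamini-Hochberg adjustment over all of them. SE is the log2 fold change divided by the square root of F. Replicates differed by more than counting noise (chi-square per degree of freedom 2.94 and 5.76). As the labels do not say whether replicates were separate cultures, p-values reflect no more than library-to-library spread, possibly technical. Counting intervals cover counting error only. The script was tested on simulated data. The 10 genes and the lists were chosen with earlier results of these data known. Beside the 10 genes, up to 3 called rises and 3 called falls of each list with at least 1 CPM were named by smallest p, with 3 nearest profiles for genes of at least 5 CPM, and WNK1. KITLG, FAS, TNFRSF14, binding partners and cluster neighbours were added afterwards. Alternatives were DESeq2 1.42.0, limma-voom (limma 3.58.1), RLE and upper-quartile factors, 2 other filters, a replicate block and leaving out each library. Protein sequences were not used here. Some genes are not reported here.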

Additional observations from a re-analysis of the deposited data

How the results depend on the processing

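WNK1 kept its direction and call under all 11 alternatives to which a test applied, with log2 fold changes from -3.91 to -3.68 when 1 library was left out. Over 12 alternatives (of which a raw ratio of mean CPM applied to the selected genes only), 197 of 209 values of WNK1 and of the gene and list counts kept their direction and stayed within 1.5 times, 376 of 384 values of 35 named genes kept their call, and no called value changed sign. The 8 lost calls, in 5 genes (IL12A, TNFRSF10A, TNFRSF11A, PTK2B and DOCK2), all came from leaving out 1 library. Leaving out 1 library gave 1694 to 2775 rises among all genes, 1 to 2 rises among interleukins, interferons and growth cytokines, 1 to 5 falls among TNF receptors, and 2 to 10 rises and 2 to 7 falls in chemokine receptor signalling. KITLG, which was not among the 35 named genes, lost its call without shWNK1 replicate 2 and without NS replicate 1. Upper-quartile factors gave 2 rises among interleukins, interferons and growth cytokines. DESeq2 gave 4 rises and 5 falls in chemokine receptor signalling. Of 84 log2 fold changes of the 7 selected genes, 81 stayed within the replicate spread, the pooled SD of log2 CPM within groups. The others were CCL3 at 2.95 and CCR2 at 2.09 without NS replicate 2, and CCR10 at -0.90 without shWNK1 replicate 1. Leaving out a library can seldom move a value beyond this spread, since the spread comes from the same libraries and is widest for the noisiest genes. Nothing about stability is therefore read from the count of 81. The replicate block gave 2539 rises and 2804 falls, against 2755 and 3005 without it, and changed no call of a named gene. Same-numbered libraries did not deviate together (correlation -0.00469 across 14864 genes), so the numbers do not show a pairing. CCL4, CXCR3 and TNF are limited by depth, at 0 to 9 counts a library, and CCL4 also by fragments shared with its copy. The causes of these shifts were not tested.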
